A study of Rattus norvegicus with 10 samples.

Results

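The solute carrier (Slc) genes of rat liver were followed over the first day after a burn. Their members were all probe sets, each a group of short probes that reads 1 stretch of a transcript, whose single gene symbol in the array's probe table begins with Slc and a digit, apart from Slc10a1. This name rule used no measured value and gave 180 of the 8799 probe sets of the array, for 119 genes. The study hybridised liver RNA to 10 one-colour arrays, with 2 arrays for sham rats (0 h) and 2 for each time after a burn injury, namely 1, 4, 8 and 24 h. The labels give no strain, sex, age or extent of burn. Nothing in them ties the paired arrays to different animals, and the p-values therefore reflect array-to-array spread that could be technical.

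Slc genes encode membrane carriers that move amino acids, sugars, lactate, fatty acids, nucleosides, ions, metals and vitamins across the cell surface or into organelles. Some work as exchangers, some are driven by sodium or protons, and the Slc25 family sits mainly in the inner mitochondrial membrane. In hepatocytes they supply the substrates of gluconeogenesis, urea synthesis and fatty acid oxidation, and they release glucose, lactate and ketone bodies to the blood.

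Values are deposited intensities, a linear measure of brightness that depends on the probes as well as on the RNA. Levels were therefore not compared between probe sets, except with the median of the array. The median of an array lay between 100.1 (8 h array 1) and 131.1 (1 h array 2). All 11 hepatocyte markers on the array were above the array median on all 10 arrays. The 15 markers of exocrine pancreas on the array moved with time: their summed intensity was 9725 to 10618 in sham, 44182 to 45832 at 1 h, 2345 to 2531 at 4 h, 13309 to 13838 at 8 h and 2270 to 2783 at 24 h. None of the 15 was under the floor of 36.4 on all 10 arrays, and 5 were above the array median on all 10 arrays. By the test described for the Slc genes, which covered 14 of them, 10 were higher than sham at 1 h, while 8 at 4 h and 9 at 24 h were lower. Of all probe sets tested, 0.795% were higher at 1 h, 1.99% lower at 4 h and 6.34% lower at 24 h. Of 7 cholangiocyte markers, 5 were tested. Krt18, which hepatocytes also express, was 2265.8 and 2468.4 in sham and 6725.8 and 7309.9 at 24 h. No other marker among the 5 was higher than sham at 24 h by the test. In whole liver, fewer cells of a type and less RNA per cell cannot be told apart.

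Promoter sequence was taken from RefSeq (GRCr8) as the 250 bases before the annotated start, and 100 of the 119 genes had an entry. The promoters printed are those of Slc3a2, the heavy chain that brings amino acid exchangers to the cell surface, Slc6a6, the taurine carrier, and Slc5a3, the myo-inositol carrier. These genes were low at 8 h between higher values at 4 h and 24 h. Slc5a3 entered the test described below only through 4 h and 24 h arrays, where it was high. Its 8 h dip is therefore given as values alone, and its steps were lost with no filter. Slc3a2 has 2 annotated starts, with windows at chr1:215048065-215048314 and chr1:215039671-215039920 on the minus strand, and the windows of Slc6a6, chr4:125752252-125752501, and Slc5a3, chr11:44799537-44799786, are on the plus strand. Each runs 5′ to 3′, and capitals mark the matches of the motifs searched.
Slc3a2 first start: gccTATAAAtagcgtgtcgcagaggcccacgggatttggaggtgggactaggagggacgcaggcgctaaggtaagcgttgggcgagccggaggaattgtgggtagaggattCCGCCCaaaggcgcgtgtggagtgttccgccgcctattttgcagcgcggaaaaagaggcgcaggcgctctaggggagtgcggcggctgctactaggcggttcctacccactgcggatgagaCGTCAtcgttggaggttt
Slc3a2 second start: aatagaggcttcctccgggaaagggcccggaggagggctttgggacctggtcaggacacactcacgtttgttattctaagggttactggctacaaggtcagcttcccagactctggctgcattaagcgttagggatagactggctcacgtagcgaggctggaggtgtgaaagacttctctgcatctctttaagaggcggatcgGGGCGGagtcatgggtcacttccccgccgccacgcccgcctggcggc
Slc6a6: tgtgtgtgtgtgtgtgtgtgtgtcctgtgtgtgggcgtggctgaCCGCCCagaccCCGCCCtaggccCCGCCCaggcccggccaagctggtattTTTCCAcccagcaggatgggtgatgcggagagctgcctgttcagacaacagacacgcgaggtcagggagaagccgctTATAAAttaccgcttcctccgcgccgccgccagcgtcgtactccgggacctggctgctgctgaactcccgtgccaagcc
Slc5a3: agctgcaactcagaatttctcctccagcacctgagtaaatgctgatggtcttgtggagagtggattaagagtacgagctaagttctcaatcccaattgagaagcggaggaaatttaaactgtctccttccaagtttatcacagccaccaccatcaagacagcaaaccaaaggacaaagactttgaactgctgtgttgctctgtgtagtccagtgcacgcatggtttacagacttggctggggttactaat
The motifs, searched on both strands, were the full cAMP response element TGACGTCA, its core TGACG (which lies within it), the amino acid response core TGATGNAA, the tonicity core TGGAAA, the glucocorticoid core AGAACA, the GC box GGGCGG and the TATA core TATAAA. The first Slc3a2 window held the TATA core, 247 bases before the start, and, on the opposite strand, a GC box and the cAMP core, the latter 18 bases before the start. The second Slc3a2 window held a GC box alone, 47 bases before the start. The Slc6a6 window held 3 GC boxes and the tonicity core on the opposite strand, the latter 156 bases before the start, and the TATA core 79 bases before it. The Slc5a3 window held none of the motifs. Of all 33469 rat promoter windows, 18.2% held TGACG, 19.7% held TGGAAA, 30.5% held GGGCGG and 12.9% held TATAAA. The full cAMP element was in 1.59% of them and the amino acid response core in 3.4%, and neither was in these 4 windows. Of 7 genes that were lower at 8 h than at 4 h, 4 had an entry: these 3 and Slc28a2, whose window held the glucocorticoid core at 2 places and the TATA core once.

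Which Slc probe sets were bright on these arrays was described first, as the number above the median of their own array. Brightness above the median does not by itself show that liver holds the RNA. The adipose marker Lep (2686.1 to 3373.2) and the endocrine pancreas marker Ins1 (773.1 to 1170) were above it on all 10 arrays. Of the 180 Slc probe sets, 64 were above it on all 10 arrays, 63 on 1 to 9 arrays and 53 on no array. Over the whole array, 35.6% of probe sets were above it on all 10 arrays and 33.6% on none. The count on a single array ran from 85 to 97 Slc probe sets. The probe sets with both arrays of a group above the median numbered 78 in sham and 77, 83, 85 and 88 at the 4 burn times in order. The same count over the whole array was not made, so these numbers do not show a change of Slc genes with time.

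**Figure D1:**
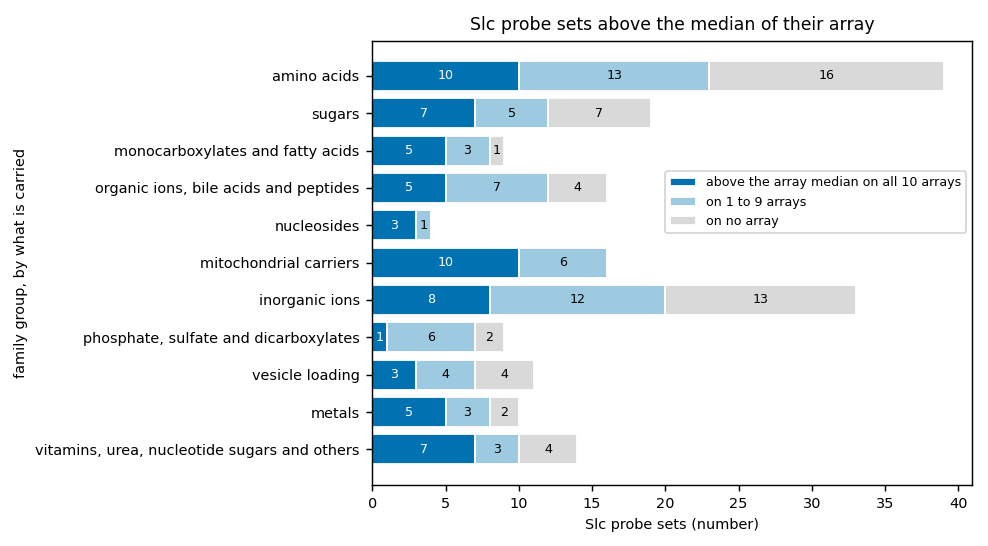
Slc probe sets in 11 family groups named by what they carry (vertical axis), with bar length giving the number of probe sets (horizontal axis). Shades give those above the median of their array on all 10 arrays, on 1 to 9 arrays and on no array. All 16 mitochondrial carrier probe sets were above it on 1 array or more, while 16 of 39 amino acid carrier probe sets were above it on none.

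Mitochondrial carriers and nucleoside carriers had no probe set that stayed at or under the array median throughout. Of 16 probe sets for 12 mitochondrial carrier genes, 10 were above it on all 10 arrays. They were Slc25a5, an ADP/ATP exchanger (4342.8 to 6789.9), Slc25a3, the phosphate carrier (1869.2 to 4082.3), and Slc25a1, the citrate carrier (1653.2 to 3154.9). The dicarboxylate carrier Slc25a10 had 3 such probe sets (257.3 to 2073.3 over all 3), and the oxoglutarate carrier Slc25a11 had 2 (266.4 to 1362.6 over both). Slc25a17, a carrier of peroxisomes, ranged from 673 to 1054.8, and Slc25a20, which exchanges carnitine and acylcarnitine, from 374 to 903.3. The nucleoside carriers Slc28a1 (241.2 to 473.3), Slc28a2 (169.8 to 1356.9) and Slc29a1 (235.5 to 393.4) were above the median on all 10 arrays, and Slc29a2 on 9.

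Carriers of monocarboxylates and fatty acids and carriers of sugars included genes known for high expression in hepatocytes. Slc27a2, which takes up and activates very long-chain fatty acids, ranged from 4497.5 to 8548, and Slc27a1 from 214.6 to 338.9. Slc16a1, which carries lactate, pyruvate and ketone bodies, was above the median on all 10 arrays by both of its probe sets, as was Slc16a12 (121.2 to 265.5). Slc2a2, the glucose carrier of the hepatocyte surface, ranged from 1359.3 to 2509. Slc37a4, which brings glucose 6-phosphate into the endoplasmic reticulum, ranged from 1668.1 to 3865.4 over its 2 probe sets. Slc2a3, Slc2a5 and Slc5a1 each had 1 probe set above the median on all 10 arrays, as did Slc5a6, a vitamin carrier counted here with its family. Slc2a4, the glucose carrier of muscle and fat, was above it on 1 array at most, and Slc5a2, a glucose carrier of kidney, on none.

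Carriers of organic ions, metals and vitamins also held probe sets above the median throughout beside others that never reached it. Slc22a7, an organic anion carrier of liver, ranged from 1422.6 to 2980.4 over its 2 probe sets, and Slc22a18 from 1301.5 to 2907.7. One probe set of Slc10a2, the bile acid carrier of ileum and bile duct, was above the median on all 10 arrays (126.7 to 303.7) and the other on none, and the proton-coupled carrier Slc15a4 ranged from 154.7 to 231.8. Among metal carriers, both probe sets of the iron exporter Slc40a1 (178.8 to 550.5), 1 of 3 for the iron importer Slc11a2 (258.9 to 402.4), Slc41a2 (790.9 to 1556.7) and Slc41a3 (172 to 311) were above it on all 10 arrays. The last 2 belong to a family of magnesium carriers. Among the others, the urea carriers Slc14a1 and Slc14a2 had 1 such probe set each, the folate carrier Slc19a1 had 2, the nucleotide sugar family member Slc35b1 had 2 and Slc23a3 had 1.

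Amino acid carriers had the most members, 39 probe sets for 24 genes, of which 10 were above the median on all 10 arrays and 16 on none. The 10 were both probe sets of Slc3a2, Slc7a5, its partner in the exchange of large neutral amino acids (457 to 763.3), Slc7a2, Slc6a9, Slc6a13, Slc6a11, and 1 probe set each of Slc6a2, Slc6a3 and Slc6a4. The last 4 genes are carriers of neurons or glia for GABA, noradrenaline, dopamine and serotonin, and their intensities on these sets ran from 140.1 to 451.2. The other probe set of Slc6a2 (7.1 to 18.9) and that of Slc6a3 (18.9 to 129) were above the median on no array. The glutamate carriers of the Slc1 family had 13 probe sets, of which none was above the median on all 10 arrays and 6 were above it on none.

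Inorganic ion carriers held 8 of 33 probe sets above the median on all 10 arrays. These were the sulfate carrier Slc26a1 (1113.9 to 1949.5), the anion and bicarbonate carriers Slc4a1 (2 probe sets), Slc4a2, Slc4a4 and Slc4a7, the potassium chloride carrier Slc12a4 and 1 probe set of the sodium calcium exchanger Slc8a1. Slc4a1 is the anion exchanger of red cells. The 4 erythroid markers on the array summed to 50483 to 52682 in sham, and 3 of them were also above the median on all 10 arrays. The part of blood in the Slc4a1 level was not tested. Among the phosphate and dicarboxylate carriers Slc20a2 alone was above it on all 10 arrays, and in the vesicle group this held for both probe sets of Slc18a3 and 1 of 3 for Slc17a1. Of 43 genes with several probe sets, 11 had 1 above the median on all 10 arrays and another on none, so for such a gene the answer depended on the probe set.

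The changes after the burn were tested with limma on log2 intensities raised to a floor of 36.4, over the 5285 probe sets (60.1%) above their array's median on at least 2 arrays, of which 113 were Slc probe sets. A change was called at a Benjamini-Hochberg adjusted p under 0.05 over all 5285. At 1 h, 1 of 113 was called, lower (0.885%), where 1.44% of all probe sets tested were called, 0.795% higher and 0.643% lower. At 4 h, 3 were higher and 2 lower (4.42%), where all probe sets gave 4.35%, with 2.37% higher and 1.99% lower. At 8 h, 1 was higher and 4 lower (4.42%), where all gave 3.5%, with 1.55% higher and 1.95% lower. The 1 higher was Slc6a5, which entered the test only through its 8 h arrays. At 24 h, 7 were higher and 6 lower (11.5%), where all gave 10.3%, with 3.94% higher and 6.34% lower. From 1 h to 4 h, 2 rose and 1 fell (2.65%), where all gave 5%, with 2.46% higher and 2.54% lower. From 4 h to 8 h, 4 rose and 8 fell (10.6%), where all gave 8.29%, with 3.48% higher and 4.81% lower. From 8 h to 24 h, 7 rose and 8 fell (13.3%), where all gave 11.8%, with 5.81% higher and 5.94% lower. The F test over the 4 burn times called 18 (15.9%, against 15.3%).

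**Figure D2:**
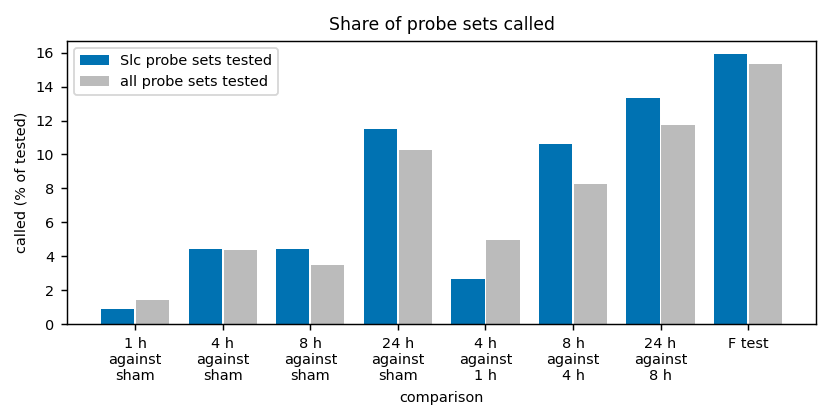
Share of probe sets called (vertical axis, % of those tested) in each comparison (horizontal axis) for the 113 Slc probe sets tested and for all 5285. The Slc share was 0.885% at 1 h and 11.5% at 24 h, and the share of all probe sets was 1.44% and 10.3%.

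The Slc shares thus lay near the shares of the whole array, and the median log2 change of the 113 was 0.06, 0.01, -0.07 and 0 at 1, 4, 8 and 24 h, beside 0.01, -0.04, -0.1 and -0.04 over all 5285. Array scaling mattered most at 8 h: with the array medians made equal, none of the 113 Slc probe sets was called at 8 h by limma (21 at an unadjusted p under 0.05), and the higher share of all calls went from 44.3% to 66.3%. From 4 h to 8 h that share went from 42% to 55.4%, and from 8 h to 24 h from 49.4% to 35.3%. Of 54 called changes described here, 11 held with each array left out in turn, and 35 of 49 were lost when only the 2 groups compared were fitted. The 11 were 4 of Slc25a30, 3 of Slc3a2, 2 of Slc16a6 (over the 8 arrays that could be left out) and 1 each of Slc6a6 and Slc7a2. None of the 54 changed direction under any alternative run. The Slc16a6 probe set entered the test only through its 4 h arrays, so its 2 calls among the 11 are values alone.

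Of 19 probe sets tested for amino acid carriers, 2 rose and 1 fell at 4 h, 1 rose and 3 fell at 8 h, and from 4 h to 8 h 2 rose, 4 fell and 13 were not called. The shares called among all probe sets were 4.35%, 3.5% and 8.29% in these comparisons. The osmolyte carrier Slc5a3, counted with the sugar carriers, is described beside them.

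Slc3a2 was read by 2 probe sets, and both were low at 8 h. By the probe set X89225cds_s_at its intensity was 652.6 and 595.1 in sham, 516.1 and 579.5 at 1 h, 1283 and 1038.9 at 4 h, 283.6 and 306.7 at 8 h and 1505.5 and 1181.9 at 24 h. Both 8 h arrays were below every other array and both 24 h arrays above both sham arrays. It fell 2.11-fold at 8 h against sham (log2 change -1.08, SE 0.19, adjusted p 0.0351) and was 2.14-fold higher at 24 h (1.10, SE 0.19, adjusted p 0.0145). The steps were larger: 3.91-fold lower at 8 h than at 4 h (adjusted p 0.00166) and 4.52-fold higher at 24 h than at 8 h (adjusted p 0.000999). From 1 h to 4 h it rose 2.11-fold (adjusted p 0.0237).

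By the probe set AB015433_s_at Slc3a2 was at 1339.9 and 971.9 in sham, 871.2 and 1103.6 at 1 h, 1637.6 and 1245.1 at 4 h, 310.8 and 341.4 at 8 h and 2380.4 and 1242.3 at 24 h. Again both 8 h arrays were the lowest of the 10, while 1 of the 24 h arrays lay within the sham values. It fell 3.5-fold at 8 h against sham (log2 change -1.81, SE 0.34, adjusted p 0.0406), was 4.38-fold lower at 8 h than at 4 h (adjusted p 0.0119) and 5.28-fold higher at 24 h than at 8 h (adjusted p 0.00607). With array medians made equal, the 8 h calls against sham of both probe sets were lost. Their steps from 4 h to 8 h and from 8 h to 24 h kept their calls under that scaling. The 8 h calls against sham of both probe sets were lost without any array of sham, 1 h, 4 h or 8 h (adjusted p up to 0.159 for X89225cds_s_at and 0.178 for AB015433_s_at), and the 24 h call was lost without either sham array or 24 h array 1 (highest 0.0797). The rise from 1 h to 4 h was lost without any 1 h or 4 h array (highest 0.126), and the step from 4 h to 8 h of AB015433_s_at without 4 h array 1 or either 8 h array (highest 0.0787). Its light chain Slc7a5 was at 670.4 and 533.3 in sham and at 524.3 and 457 at 8 h, a log2 change of -0.29 (adjusted p 0.479), and was called in none of the 7 comparisons.

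Slc6a6, which brings the osmolyte taurine into cells, was at 80.4 and 125.5 in sham, 180.4 and 146 at 1 h, 349.2 and 291.2 at 4 h, 43.2 and 16.5 at 8 h and 117.5 and 121 at 24 h. Both 4 h arrays were the highest of the 10 and both 8 h arrays the lowest, with 1 of them under the floor. It rose 3.17-fold at 4 h (log2 change 1.67, SE 0.25, adjusted p 0.013), was 8.04-fold lower at 8 h than at 4 h (adjusted p 0.000908) and 3.01-fold higher at 24 h than at 8 h (adjusted p 0.00951). Against sham the 8 h value was 2.53-fold lower (log2 change -1.34, SE 0.25, adjusted p 0.0406), a call that was lost without any of the 10 arrays (highest adjusted p 0.143) and under each of the 9 other settings run. With the floor at the 50th percentile that change was -0.02 (adjusted p 0.996), and with the floor at the 10th percentile -1.91. The 4 h rise was lost without sham array 1 or either 4 h array (highest 0.0832), and the last step without 8 h array 2 or either 24 h array (highest 0.0554). The fall from 4 h to 8 h held without each array, and a floor at the 50th percentile gave -1.39 on the log2 scale, still called. That floor lies above both 8 h values and sets them to 1 common value. It removes their spread, so this last call cannot show that the fall holds.

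Slc5a3 carries myo-inositol, another osmolyte, and stood near the array median. Its intensity was 95.1 and 119.9 in sham, 59.4 and 83.8 at 1 h, 118.1 and 231.2 at 4 h, 56.2 and 33.6 at 8 h and 131.5 and 200.6 at 24 h. No time differed from sham by the test, but it was 3.65-fold lower at 8 h than at 4 h (adjusted p 0.0357) and 3.59-fold higher at 24 h than at 8 h (adjusted p 0.0286), with 1 of the 8 h arrays under the floor. It was above the array median on 1 array at 4 h and both at 24 h, so it entered the test only through groups where it was high. These steps are therefore values alone, and their adjusted p-values cannot show a dip. The first step was lost without any array but 4 h array 1 (highest adjusted p 0.154), and the second without any 8 h or 24 h array (highest 0.144). With a floor at the 50th percentile the steps were -0.47 (adjusted p 0.435) and 0.42 (adjusted p 0.452), and both were also lost with no filter.

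Slc7a2, which carries arginine and other cationic amino acids, was at 417.8 and 314.4 in sham, 487.2 and 543 at 1 h, 759.6 and 789.8 at 4 h, 289.4 and 263.9 at 8 h and 201.6 and 173.8 at 24 h. Both 4 h arrays were the highest and both 24 h arrays the lowest of the 10. It rose 2.14-fold at 4 h (log2 change 1.10, SE 0.19, adjusted p 0.0209), was 2.8-fold lower at 8 h than at 4 h (adjusted p 0.00487) and was 1.94-fold lower than sham at 24 h (-0.95, SE 0.19, adjusted p 0.0234). The 4 h call was lost without sham array 2 or either 4 h array (highest adjusted p 0.111), and the 24 h call without sham array 1 or either 24 h array (highest 0.116). The fall from 4 h to 8 h held without each array. Slc7a1, another cationic amino acid carrier, was above the array median on no array by any of its 3 probe sets.

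Slc6a9, a glycine carrier, ran the other way at the early times. It was at 769.9 and 879.4 in sham, 242.7 and 300.6 at 1 h, 339.8 and 278.6 at 4 h, 758.1 and 776.9 at 8 h and 885.3 and 602.3 at 24 h, so that the 1 h and 4 h arrays lay below all 6 others. It was 3.05-fold lower than sham at 1 h (log2 change -1.61, SE 0.23, adjusted p 0.0211), the only Slc call at that time, and 2.67-fold lower at 4 h (-1.42, SE 0.23, adjusted p 0.0183). At 8 h it was 2.49-fold higher than at 4 h (adjusted p 0.0179). Each of these calls was lost without either array of either group compared, with adjusted p up to 0.144, 0.109 and 0.0973.

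Slc6a13, which carries GABA and taurine in liver, was at 1235.5 and 1126.3 in sham, 804.3 and 786.9 at 1 h, 876.9 and 840 at 4 h, 1029.9 and 976.8 at 8 h and 727.8 and 689.3 at 24 h. All 8 burn arrays lay below both sham arrays, and the test called 24 h, 1.67-fold lower (log2 change -0.74, SE 0.14, adjusted p 0.0209). That call was lost without any sham or 24 h array (highest adjusted p 0.103). Slc6a5, the glycine carrier of neurons, was above the array median on the 2 arrays at 8 h alone, so it entered the test only through the group where it was high. It was at 70.8 and 111.5 in sham, 107 and 111 at 1 h, 82.7 and 80.7 at 4 h, 232.7 and 188.2 at 8 h and 79.2 and 89.7 at 24 h. Its 8 h value was 2.36-fold that of sham (log2 change 1.24, SE 0.24, adjusted p 0.0435), 2.56-fold that at 4 h (adjusted p 0.0176) and 2.48-fold that at 24 h (adjusted p 0.0152). These calls of Slc6a5 are values alone, because they test the height that let it in. It could not be tested without either 8 h array, and the call against sham was lost without each of the other 8 (highest adjusted p 0.147); the steps were lost without either 4 h array (highest 0.0874) and without either 24 h array (highest 0.0835).

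**Figure D3:**
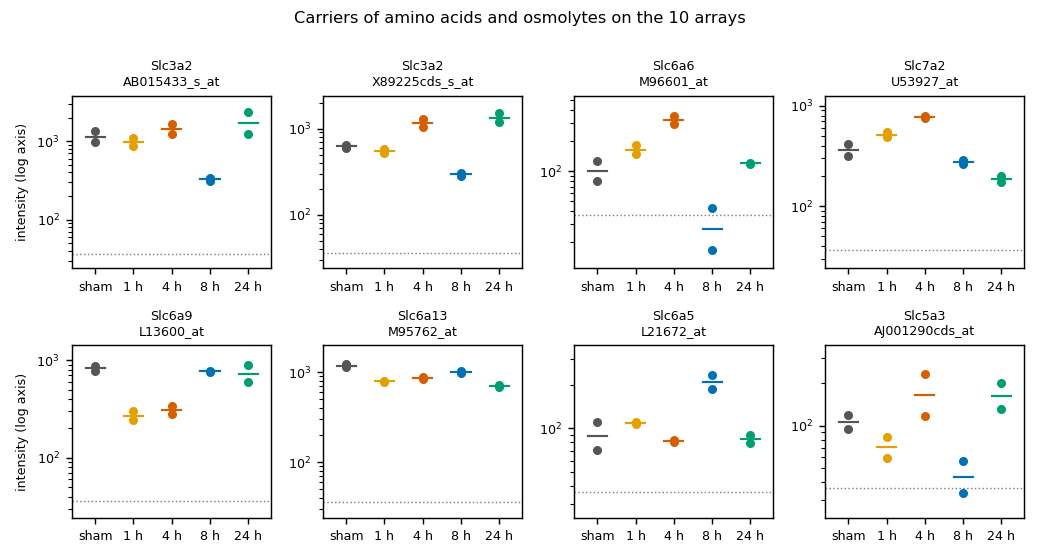
Intensity (vertical axes, log scale) of 8 probe sets for carriers of amino acids and osmolytes on the 2 arrays of each group (horizontal axes); bars are geometric means and the dotted line is the floor of 36.4. Both 8 h arrays of Slc3a2 and Slc6a6 lie below the arrays of every other group, and the 1 h and 4 h arrays of Slc6a9 lie below those of the other groups.

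Among mitochondrial carriers, 15 probe sets were tested, and Slc25a30 changed more than any other Slc probe set called. Slc25a30 encodes a carrier of the inner mitochondrial membrane first described in kidney. Its intensity was 655.7 and 606.4 in sham, 1521.9 and 823.8 at 1 h, 62.6 and 47.7 at 4 h, 398.4 and 406.8 at 8 h and 159.4 and 153.7 at 24 h. The groups did not overlap: 1 h stood highest, then sham, 8 h, 24 h and 4 h. It was 11.5-fold lower than sham at 4 h (log2 change -3.53, SE 0.29, adjusted p 0.000889) and 4.03-fold lower at 24 h (-2.01, SE 0.29, adjusted p 0.0077). The steps were 20.5-fold lower from 1 h to 4 h (adjusted p 0.000289), 7.37-fold higher from 4 h to 8 h (adjusted p 0.00203) and 2.57-fold lower from 8 h to 24 h (adjusted p 0.0263). The last step was lost without any 8 h or 24 h array (highest adjusted p 0.115), and the other 4 calls held without each array. With a floor at the 50th percentile, which lies above both 4 h values, the log2 changes were -2.38 at 4 h, -3.21 from 1 h to 4 h and 1.73 from 4 h to 8 h, all called. That floor sets both 4 h values to 1 common value and removes their spread, so these calls cannot show that the changes hold. The exocrine pancreas markers also stood highest at 1 h and lowest at 4 h and 24 h, and their part in this probe set's values was not tested.

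Slc25a3, which brings phosphate into mitochondria for ATP synthesis, was at 2159 and 1967.7 in sham, 2013.8 and 1869.2 at 1 h, 2796.5 and 2992 at 4 h, 2933.4 and 2606.7 at 8 h and 4082.3 and 3430.3 at 24 h. The 6 arrays from 4 h on lay above the 4 earlier ones, and the test called 24 h, 1.82-fold higher (log2 change 0.86, SE 0.16, adjusted p 0.0201). Slc25a23, an ATP-magnesium and phosphate carrier, was at 132.9 and 75.1 in sham, 114.5 and 132.6 at 1 h, 90.4 and 124.3 at 4 h, 117.2 and 132.5 at 8 h and 39.4 and 38.2 at 24 h. Both 24 h arrays were the lowest, just over the floor. It was 2.58-fold lower than sham (log2 change -1.36, SE 0.29, adjusted p 0.0296) and 3.21-fold lower than at 8 h (adjusted p 0.0132). The Slc25a3 call was lost without any sham or 24 h array (highest adjusted p 0.105). The Slc25a23 calls were lost without either 24 h array, the first also without sham array 1 or either 1 h array (highest 0.121) and the second without 8 h array 2 (highest 0.0706), and both with a floor at the 50th percentile (log2 changes -0.07 and -0.06).

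Of 8 probe sets tested for monocarboxylate and fatty acid carriers, Slc16a6 rose at 4 h and Slc16a1 at 24 h. The shares called among all probe sets were 4.35% at 4 h and 10.3% at 24 h. Slc16a6, a monocarboxylate carrier linked to release of ketone bodies from hepatocytes, was at 71.6 and 31.6 in sham, 43 and 77.7 at 1 h, 370.8 and 330.7 at 4 h, 43.2 and 58.1 at 8 h and 24 and 16.6 at 24 h. Both 4 h arrays stood apart from the other 8, and the probe set entered the test only through them. Its calls are therefore values alone. It was 6.86-fold higher than sham at 4 h (log2 change 2.78, SE 0.39, adjusted p 0.00909), with 1 sham array under the floor, 6.06-fold higher than at 1 h (adjusted p 0.0125) and 6.99-fold lower at 8 h than at 4 h (adjusted p 0.00671). It could not be tested without either 4 h array. Without 1 h array 1 the second of these was lost (adjusted p 0.0643), and the others held without each of the remaining arrays. With a floor at the 50th percentile the 3 log2 changes were 1.53, 1.53 and -1.53, all called. That floor lies above the values of the other 8 arrays and sets them to 1 common value. It removes their spread, so these calls cannot show that the change holds.

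Slc16a1, the lactate and ketone body carrier, was at 194.9 and 144.4 in sham, 291.8 and 258.6 at 1 h, 396.4 and 304 at 4 h, 283.4 and 220.7 at 8 h and 455.2 and 455.3 at 24 h by the probe set D63834_at. All 8 burn arrays lay above both sham arrays, and 24 h was called, 2.71-fold higher (log2 change 1.44, SE 0.23, adjusted p 0.0109). By rc_AI145680_s_at it was at 589.9 and 622.2 in sham, 760 and 711.7 at 1 h, 1143.4 and 1099.2 at 4 h, 878.9 and 517 at 8 h and 1133.6 and 1084.6 at 24 h, a pattern that passed the test at no time. The D63834_at call was lost without sham array 2 or either 24 h array (highest adjusted p 0.0598). Slc27a2, the fatty acid carrier, was at 6201 and 6475.7 in sham, 5581.4 and 5845.7 at 1 h, 5168.9 and 5971.2 at 4 h, 8548 and 6831 at 8 h and 4607.6 and 4497.5 at 24 h. It was called between 8 h and 24 h alone, 1.68-fold lower at 24 h (log2 change -0.75, SE 0.17, adjusted p 0.033), and the call was lost without any array of sham, 1 h, 8 h or 24 h (highest adjusted p 0.137).

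Among 9 probe sets tested for sugar carriers, that of Slc37a4 alone was called against sham, at 24 h. The share called among all probe sets at that time was 10.3%. Slc37a4 was read by 2 probe sets. By AF080468_g_at it was at 3518.8 and 3787.8 in sham, 2860.3 and 2566.6 at 1 h, 2333.6 and 2825.2 at 4 h, 3865.4 and 3711.4 at 8 h and 2441.2 and 2065.7 at 24 h. The sham and 8 h arrays lay above all others. It was 1.63-fold lower than sham at 24 h (log2 change -0.70, SE 0.17, adjusted p 0.0479) and 1.69-fold lower than at 8 h (adjusted p 0.0342). The first call was lost without any of the 10 arrays (highest adjusted p 0.195) and the second without any but the 4 h arrays (highest 0.162). Its other probe set AF080468_at, at 2806.5 and 2785.2 in sham and 2043.1 and 1668.1 at 24 h, was not called. The glucose carrier Slc2a2 was at 1817.6 and 1966.7 in sham and 1359.3 and 1617.5 at 24 h, a log2 change of -0.35 (adjusted p 0.31).

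Among 8 probe sets tested for organic ion carriers and 4 for nucleoside carriers, calls came only between burn times. The shares called among all probe sets were 1.44% to 10.3% against sham and 5% to 11.8% between burn times. With so few tested, this does not set these carriers apart. Slc22a18 was at 2034.1 and 1913.7 in sham, 2216.9 and 1975.1 at 1 h, 1824.6 and 1587.3 at 4 h, 2907.7 and 2490.8 at 8 h and 1471.5 and 1301.5 at 24 h. Both 8 h arrays were the highest and both 24 h arrays the lowest, a 1.94-fold fall (log2 change -0.96, SE 0.17, adjusted p 0.0138) that was lost without 8 h array 1 or either 24 h array (highest 0.0809). Slc22a7, an organic anion carrier, had the same order by L27651_g_at. It was at 1962.6 and 2395 in sham, 2117.2 and 2456.3 at 1 h, 1672.1 and 1955.6 at 4 h, 2822.5 and 2980.4 at 8 h and 1512.8 and 1594.3 at 24 h, 1.87-fold lower at 24 h than at 8 h (log2 change -0.90, SE 0.18, adjusted p 0.0196), and the call was lost without any 8 h or 24 h array (highest 0.0977). By L27651_at, with 2510.7 and 2095.6 at 8 h and 1591.3 and 1435.1 at 24 h, it was not called.

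Slc28a2, a sodium-coupled purine nucleoside carrier, was at 546.7 and 437.1 in sham, 1172.9 and 1356.9 at 1 h, 524.9 and 832.9 at 4 h, 313 and 169.8 at 8 h and 283.2 and 235 at 24 h. Both 1 h arrays were the highest of the 10, and the 8 h and 24 h arrays lay below all others. No time was called against sham. The fall from 4 h to 8 h was 2.87-fold (log2 change -1.52, SE 0.35, adjusted p 0.0417), and it was lost without any array but 8 h array 1 (highest adjusted p 0.175).

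Of the phosphate carriers of the cell surface, Slc20a2 was called lower than sham at 8 h. The Slc34a1 call against sham, higher at 24 h, rested on 1 of its 5 probe sets. Slc20a2, a phosphate carrier found in most tissues, was at 590.6 and 539.9 in sham, 616.2 and 558.8 at 1 h, 686.6 and 632.6 at 4 h, 342.1 and 264.1 at 8 h and 542.3 and 509.8 at 24 h, so that both 8 h arrays were the lowest. It was 1.88-fold lower than sham at 8 h (log2 change -0.91, SE 0.18, adjusted p 0.0445), 2.19-fold lower than at 4 h (adjusted p 0.0115) and rose 1.75-fold from 8 h to 24 h (adjusted p 0.0298). Each of these calls was lost with array medians made equal, so the 8 h dip depended on the scaling. The call against sham was lost without any of the 10 arrays (highest adjusted p 0.183), the first step without either 4 h array or 8 h array 2 (highest 0.0725), and the second without either 1 h array, 8 h array 2 or either 24 h array (highest 0.129).

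Slc34a1, the phosphate carrier of the kidney tubule, had 5 probe sets that differed. By AB013453_at it was at 30.6 and 54.7 in sham, 31.1 and 29.2 at 1 h, 38.9 and 39.8 at 4 h, 115.3 and 75.9 at 8 h and 125.2 and 147.9 at 24 h, and above the array median on 3 arrays, 1 at 8 h and both at 24 h, so it entered the test only through the groups where it was high. It was 3.05-fold higher than sham at 24 h (log2 change 1.61, SE 0.27, adjusted p 0.0128), with 1 sham array under the floor, and 2.38-fold higher at 8 h than at 4 h (adjusted p 0.035). Both calls are therefore values alone. The first call was lost without sham array 1 or 24 h array 2 (highest adjusted p 0.0743), and the second without either 1 h array, either 4 h array, 8 h array 1 or either 24 h array (highest 0.132). With a floor at the 50th percentile the 24 h change was 0.17 (adjusted p 0.472), and that call was also lost with an intensity trend and robust variance or with only the groups compared. Of the other 4, AB013455_at (50 to 97.2) was above the median on no array, and AB013455_g_at (84.5 to 236.5), rc_AA891726_s_at (46 to 366) and rc_AI105198_i_at (29.8 to 396.8) were tested and not called.

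Of 19 probe sets tested for inorganic ion carriers and 8 for metal carriers, 1 of each was called against sham, both at 24 h. The share called among all probe sets at 24 h was 10.3%. Slc12a7, a potassium chloride carrier, was at 372.6 and 401.1 in sham, 412.8 and 291.7 at 1 h, 173.3 and 183.4 at 4 h, 566.2 and 417.9 at 8 h and 178.1 and 83.6 at 24 h. The 4 h and 24 h arrays lay below all others. The test called 24 h, 3.17-fold lower than sham (log2 change -1.66, SE 0.37, adjusted p 0.0323) and 3.99-fold lower than 8 h (adjusted p 0.0155). The first call was lost without either sham array, either 4 h array or 24 h array 2 (highest adjusted p 0.134), and the second without 8 h array 1 or 24 h array 2 (highest 0.0778). Slc41a2, a magnesium carrier, was at 790.9 and 884 in sham, 1103.4 and 1064.1 at 1 h, 1120.5 and 859.2 at 4 h, 989.9 and 969.3 at 8 h and 1393.8 and 1556.7 at 24 h. Both 24 h arrays were the highest, 1.76-fold over sham (log2 change 0.82, SE 0.18, adjusted p 0.0317), and the call was lost without any array of sham, 1 h, 8 h or 24 h (highest 0.139).

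Slc35b1, a nucleotide carrier of the endoplasmic reticulum membrane, was called at 24 h by both of its probe sets. By D87991_g_at it was at 934.1 and 813.2 in sham, 738.4 and 778.1 at 1 h, 1064.6 and 1122.5 at 4 h, 772.9 and 686.7 at 8 h and 1774.9 and 1402.5 at 24 h. By D87991_at it was at 515.1 and 475 in sham, 408.1 and 332.9 at 1 h, 535.8 and 547.9 at 4 h, 457.3 and 466.5 at 8 h and 954.5 and 797.6 at 24 h. Both 24 h arrays were the highest of the 10 by either probe set. The rise over sham was 1.81-fold by D87991_g_at (log2 change 0.86, SE 0.18, adjusted p 0.0267) and 1.76-fold by D87991_at (0.82, SE 0.17, adjusted p 0.0277), and from 8 h to 24 h it was 2.17-fold (adjusted p 0.0099) and 1.89-fold (adjusted p 0.0166). Both calls against sham were lost without any sham or 24 h array (highest adjusted p 0.141), and that of D87991_g_at also without either 1 h array. The step of D87991_g_at was lost without 8 h array 2 or 24 h array 1 (highest 0.0568), and that of D87991_at without either 8 h array or 24 h array 1 (highest 0.0944).

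No carrier of the vesicle group was called in any comparison among 6 probe sets tested. Among all probe sets, 1.44% to 11.8% were called in these comparisons. By the F test the smallest p among them was that of U28504_at of Slc17a1, an organic anion and phosphate carrier of kidney and liver. It was at 465.1 and 480.2 in sham, 494.7 and 491.4 at 1 h, 449.1 and 433.7 at 4 h, 327.2 and 279.5 at 8 h and 346.2 and 255.1 at 24 h. The 8 h and 24 h arrays lay below all others, and the adjusted p of the F test was 0.0658. Its 24 h value differed from sham by a log2 change of -0.67.

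**Figure D4:**
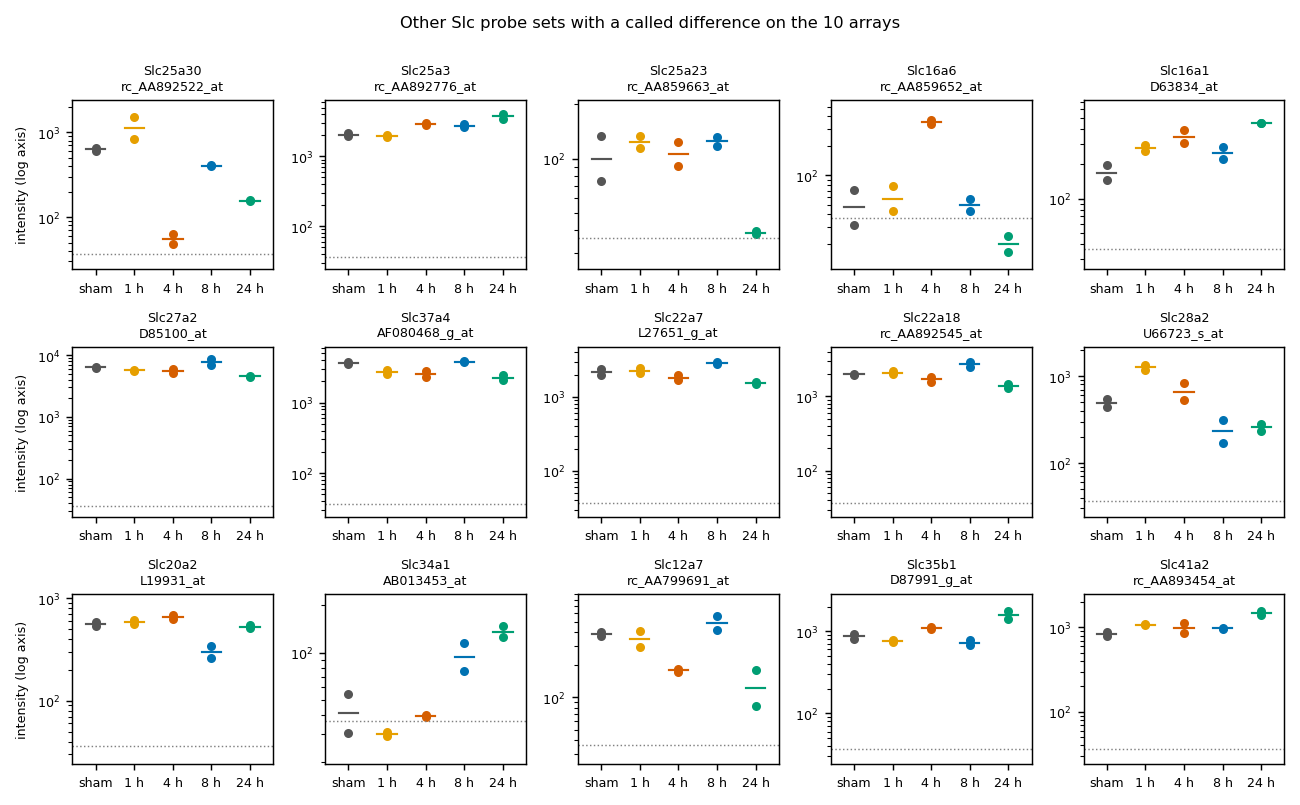
Intensity (vertical axes, log scale) of 15 further Slc probe sets on the 2 arrays of each group (horizontal axes); bars are geometric means and the dotted line is the floor of 36.4. Slc25a30 was lowest at 4 h (62.6 and 47.7), and Slc16a6 was highest at 4 h (370.8 and 330.7).

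**Figure D5:**
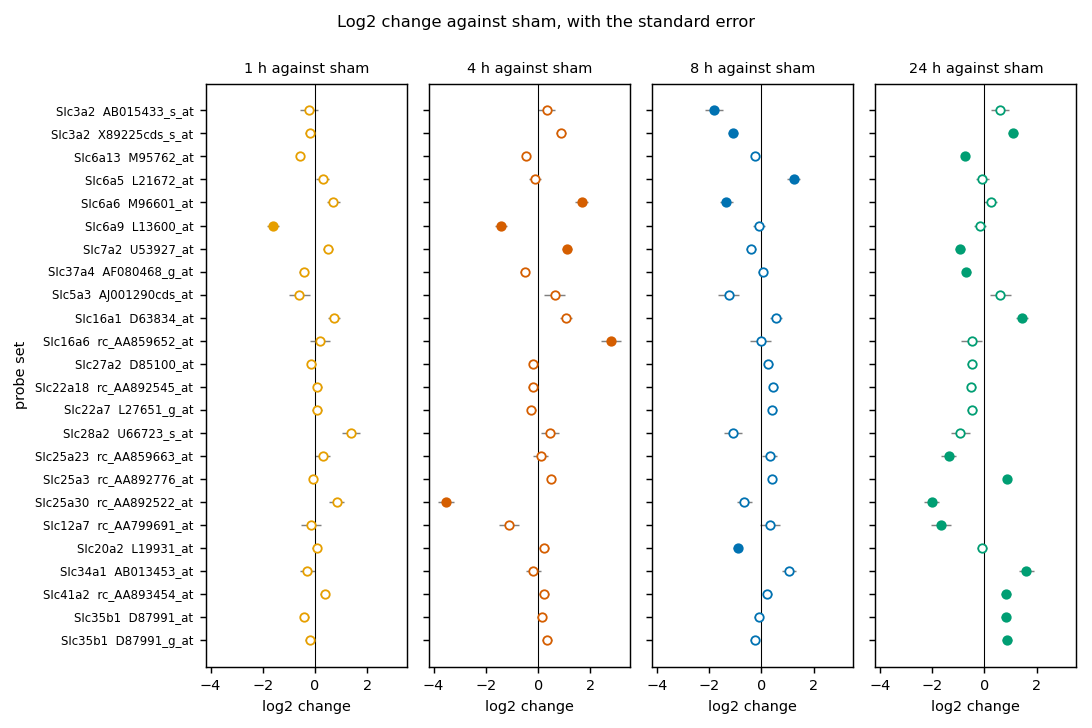
Log2 change against sham (horizontal axes) at each burn time for the Slc probe sets called in at least 1 comparison (vertical axis), with bars for the standard error. Filled points passed an adjusted p under 0.05: 1 point at 1 h, 5 points at 4 h and at 8 h, and 13 points at 24 h.

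Genes that work beside the Slc carriers were followed in 4 lists. Of all probe sets tested, 4.35% were called at 4 h, 3.5% at 8 h and 10.3% at 24 h. Of 4 Slco organic anion carriers tested, Slco2a1, the prostaglandin carrier, was at 1949 and 1989.6 in sham, 4404.3 and 4440.7 at 8 h and 957.2 and 1016.1 at 24 h. It was 2.25-fold higher at 8 h (adjusted p 0.0111) and 2-fold lower at 24 h (adjusted p 0.0075). Of 6 genes tested for partners and regulators of carriers, limma called none at any burn time against sham. Of these, Sgk1, a kinase that regulates carriers, was at 243.1 and 145.4 in sham and 578.9 and 690.8 at 1 h (adjusted p 0.0798), and its F test over the burn times had an adjusted p of 0.0175. Of 6 genes tested from the amino acid response, the transcription factor Cebpb rose 2.03-fold (adjusted p 0.0191) and the stress gene Gadd45a 1.86-fold (adjusted p 0.0209) at 4 h. The log2 changes of Asns, Psat1, Trib3 and Atf3 at 4 h were -0.62, -0.5, -0.4 and 0.06, and none was called. A link between this list and the Slc values was not tested. The serine synthesis enzyme Psat1 was 3.43-fold lower at 8 h (adjusted p 0.025) and 2.39-fold lower at 24 h (adjusted p 0.0353), and Cebpb was 1.62-fold lower at 24 h (adjusted p 0.0472). Of 8 aquaporins tested, the water channels Aqp8 (1.73-fold, adjusted p 0.0344) and Aqp9 (1.72-fold, adjusted p 0.0174) were lower at 24 h.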

How the data were processed

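Liver RNA of 5 groups of 2 arrays was measured, and the values are intensities deposited by the authors, 1 per probe set and array. By these values, each array had been scaled to a trimmed mean of 500.9 to 501. Their software is not given by the labels or files used here. Probe sets were named through GEO's platform annotation, where 7018 have 1 symbol, 308 several and 1473 are not listed. Members and lists were chosen with earlier results of these data known. Values under 36.4, the median over arrays of the 25th percentile, were raised to it, so a fold with an array under the floor depends on it, and folds are ratios of geometric means. Probe sets above their array's median on at least 2 arrays were fitted in limma 3.58.1 (R 4.3.3) as 5 groups with 5 residual degrees of freedom, 7 contrasts and an F test, Benjamini-Hochberg adjusted over 5285. The fit was tested on simulated data. Named were members called against sham or between neighbouring burn times, with each gene's other probe sets, and in a group with none the member of smallest p in the F test. Alternatives were other scalings, floors, variance models, no filter, plain probe sets, a block for the replicate number, fits of the compared groups alone, the 1 h arrays left out and each array left out. Arrays of a group correlated at 0.961 to 0.966 and shared 8 to 24 identical values. The precision of arrays is limited by their number.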

Additional observations from a re-analysis of the deposited data

Results flagged for a closer look

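Between neighbouring burn times, the Slc probe sets below had changes against sham that differed by the test of the step itself (limma), where 1 of the 2 times was also called against sham. From 1 h to 4 h the log2 step was 2.6 for Slc16a6 and -4.36 for Slc25a30. From 4 h to 8 h it was negative for Slc3a2 (-2.13 by AB015433_s_at and -1.97 by X89225cds_s_at), Slc6a6 (-3.01), Slc7a2 (-1.49), Slc16a6 (-2.81) and Slc20a2 (-1.13). Over the same step it was positive for Slc25a30 (2.88), Slc6a9 (1.32) and Slc6a5 (1.36). From 8 h to 24 h it was positive for Slc3a2 (2.4 by AB015433_s_at and 2.18 by X89225cds_s_at), Slc6a6 (1.59), Slc20a2 (0.81) and Slc35b1 (0.92 by D87991_at and 1.11 by D87991_g_at). It was negative there for Slc25a30 (-1.36), Slc12a7 (-2), Slc25a23 (-1.68), Slc37a4 (-0.75) and Slc6a5 (-1.31). Slc3a2, Slc6a6 and Slc20a2 thus fell to 8 h and rose after it, and Slc25a30 rose to 8 h and fell after it. With array medians made equal, both Slc20a2 steps were lost, while those of Slc3a2 and Slc6a6 kept their calls. Slc6a5 entered the test only through its 8 h arrays and Slc16a6 only through its 4 h arrays, so their steps are values alone.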

How the results depend on the processing

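With 1 array left out, the number of Slc probe sets called ranged from 0 to 1 at 1 h, 1 to 6 at 4 h, 0 to 2 at 8 h, 2 to 14 at 24 h, 1 to 4 from 1 h to 4 h, 5 to 10 from 4 h to 8 h and 3 to 15 from 8 h to 24 h, and from 8 to 16 for the F test. Of 54 called changes, 10 kept their call under every alternative and none reversed. With a floor at the 50th percentile the counts were 2 at 1 h, 9 at 4 h and 5 from 1 h to 4 h. With no filter they were 3 at 1 h and 2 at 8 h, and Slc13a1, outside the filter (9.3 to 68.1) and chosen after its values were seen, was called from 8 h to 24 h (log2 change 0.88, adjusted p 0.0458). With an intensity trend and robust variance they were 3 at 1 h, 12 at 4 h, 3 at 8 h, 20 at 24 h, 5 from 1 h to 4 h, 20 from 4 h to 8 h and 23 from 8 h to 24 h. With only the groups compared they were 0 at 1 h (10 at an unadjusted p under 0.05 in limma), 1 at 4 h, 0 at 8 h (8 unadjusted), 2 at 24 h, 1 from 1 h to 4 h, 6 from 4 h to 8 h and 6 from 8 h to 24 h; this fit has fewer arrays. At 8 h the count was 3 with quantile normalization, 0 with plain probe sets (10 unadjusted, limma) and 0 without both 1 h arrays (14 unadjusted). With array medians made equal it was 0 at 8 h and 5 at 24 h, and 20 of the 54 calls were lost; the median log2 change of all probe sets at 8 h went from -0.10 to 0.06. With the replicate number as a block, 3 were called at 8 h and 5 of the 54 calls were lost. Deviations of same-numbered arrays correlated at 0.011 to 0.17, over 0.1 for 5 of 10 pairs, and all were positive. The main fit did not pair the arrays by number, and whether same-numbered arrays share a source of spread was not tested. Ldhb, singled out after its values were seen, was higher on array 1 than on array 2 in all 5 groups (115.7 to 241.1 against 46.3 to 71.7). Where no cause is named, the cause was not tested.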
